A study of Mus musculus with 8 samples.

Results

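The 38 genes described here carry out ribosome biogenesis and the growth metabolism that goes with it, and they were read by symbol from a table of 20888 genes measured by RNA-seq. The list was given by name, and all 38 symbols were in the table. In T cell acute lymphoblastic leukaemia (T-ALL) cells none of them passed the test between Kdm6b knockout-labelled libraries and controls: 0 of 38 were called lower and 0 of 38 higher, where 2.32% and 1.21% of all 13840 genes tested were called (3.53% in all). The spread in the control group came largely from 1 library. Control replicate 4 held the highest control level of 37 of the 38 genes, and leaving it out lowered the median standard deviation (SD) of the genes among controls from 0.55 to 0.16 on the log2 scale.

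Ribosomes are assembled in the nucleolus. RNA polymerase I makes a long ribosomal RNA precursor, small nucleolar RNA-protein particles (snoRNPs) modify it, and separate sets of processing factors build the small and the large subunit. The transcription factor MYC, which pairs with MAX to bind the DNA sequence CACGTG (the E-box), is known to raise many of these genes together with genes of nucleotide and polyamine synthesis, and in T-ALL MYC is itself a known target of the receptor NOTCH1. Ribosome biogenesis genes are therefore widely read as markers of cell growth.

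Blasts had been sorted from peripheral blood of mice that all carried the Vav-CRE transgene, in which Cre is expressed in blood-forming cells. The control group had wild-type Kdm6b and the other group homozygous mutant Kdm6b, with 4 libraries each, and no age or treatment is given. Kdm6b encodes a demethylase of histone H3. Whether the libraries of a group came from separate mice is not given, so the p-values describe how these libraries vary, and that variation may be technical.

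Values are CPM, reads per gene scaled by the authors to a common library sum, and they are not divided by gene length, so levels of different genes are not compared. Depth estimated from the step between low values was 18250000 to 22060000 reads per control library and 14000000 to 18230000 reads per knockout-labelled library, with control replicate 4 the deepest. The T cell genes fixed as a check were present in every library (Cd3e at 1944 to 2532 CPM), whereas the B cell markers were uneven: Ms4a1 was at or near 0 (0 to 0.384 CPM), but Cd79b was at 10.9 to 18.6 CPM and Ighm, an immunoglobulin heavy chain gene, at 629.7 to 852 CPM in every library. Summed erythroid markers varied widely, at 60.4 to 1255 CPM in the controls and 162 to 945 CPM in the knockout-labelled libraries. Summed neutrophil and monocyte markers were at 101 to 276 CPM and 93.3 to 229 CPM. Kdm6b was not lower under the knockout label, at 583, 629, 521 and 323 CPM in control replicates 1 to 4 and 622, 656, 618 and 451 CPM in knockout-labelled replicates 1 to 4 (limma adjusted p = 0.599). A gene-level value includes exons outside a deleted part and checks neither the deletion nor the labels, so the second group is called knockout-labelled and every direction rests on the labels. Xist, expressed from an inactive X chromosome, was at 0 to 0.831 CPM in the controls and at 264 to 455 CPM in the other group, so sex cannot be told apart from the label. In bulk RNA, fewer cells of a type and less RNA per cell cannot be told apart.

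Short promoter windows were searched for the sequence that MYC with MAX binds. RefSeq windows on GRCm38.p6, from 250 bases before to 50 bases after an annotated start, were given for 33 of the 38 genes (not for Rrp12, Npm1, Fbl, Bop1 and Srm). CACGTG, which is its own reverse complement, was present in 7 of these 33 genes (21.2%), against 8.09% of all 27025 genes in the promoter table and 11.97% of the 9172 of them tested here. The related sequence CACGCG or its reverse complement CGCGTG, which can overlap each other but not CACGTG, was present in 9 of 33 (27.3%), against 10.5% of all and 20.2% of tested genes. The 7 genes with CACGTG were Ltv1, Nme1, Nop2, Pes1, Tsr1, Utp20 and Wdr43. A match is a description of the letters and not a measured binding site. The windows of the listed genes were also richer in G and C (median 59.7% of bases against 52.7% over all windows), and the shares were not adjusted for this. The stretches from 120 bases before to 30 bases after the start are shown for 5 of the 7, and for Wdr12 and Cad, which are described below for their expression values. Wdr12 and Cad were among 18 of the 33 genes with neither sequence in their windows. Bases outside the windows were not searched, so these genes may carry either sequence elsewhere. Control replicate 4, described below, was the highest of the 8 libraries in 16 of these 18 and in 14 of the 15 genes with either sequence. Capitals mark CACGTG.
Nme1, chr11:93968243-93968392, minus strand: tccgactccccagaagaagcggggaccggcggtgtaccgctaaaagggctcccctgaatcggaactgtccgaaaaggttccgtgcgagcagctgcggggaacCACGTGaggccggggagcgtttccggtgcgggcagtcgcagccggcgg
Wdr43, chr17:71616095-71616244, plus strand: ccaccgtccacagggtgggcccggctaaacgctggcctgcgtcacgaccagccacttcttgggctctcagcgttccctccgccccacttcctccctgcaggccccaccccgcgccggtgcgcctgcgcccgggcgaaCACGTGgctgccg
Pes1, chr11:3963855-3964004, plus strand: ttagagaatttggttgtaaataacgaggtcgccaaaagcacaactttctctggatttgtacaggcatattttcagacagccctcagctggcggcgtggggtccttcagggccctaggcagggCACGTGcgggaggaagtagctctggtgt
Tsr1, chr11:74897960-74898109, plus strand: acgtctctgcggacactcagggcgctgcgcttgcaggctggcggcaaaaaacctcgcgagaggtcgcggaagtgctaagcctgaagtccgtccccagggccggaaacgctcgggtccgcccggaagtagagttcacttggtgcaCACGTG
Nop2, chr6:125131763-125131912, plus strand: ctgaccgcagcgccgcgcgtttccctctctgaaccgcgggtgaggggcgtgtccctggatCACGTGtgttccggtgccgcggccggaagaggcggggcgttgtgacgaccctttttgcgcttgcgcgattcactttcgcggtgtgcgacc
Wdr12, chr1:60098471-60098620, minus strand: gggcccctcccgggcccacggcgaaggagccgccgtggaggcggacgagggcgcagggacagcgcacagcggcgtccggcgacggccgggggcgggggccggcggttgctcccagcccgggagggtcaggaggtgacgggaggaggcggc
Cad, chr5:31054660-31054809, plus strand: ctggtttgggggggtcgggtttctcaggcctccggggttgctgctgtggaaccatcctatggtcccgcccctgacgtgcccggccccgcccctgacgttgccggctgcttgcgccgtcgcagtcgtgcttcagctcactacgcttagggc
The match lay 18 bases before the start in Nme1, 60 bases before it in Nop2, and within the first 30 transcribed bases in Wdr43, Pes1 and Tsr1. Nme1 has a second annotated start with a match 29 bases before it, and Wdr12 has 3 annotated starts, of which the one nearest the GENCODE gene start is shown.

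**Figure D1:**
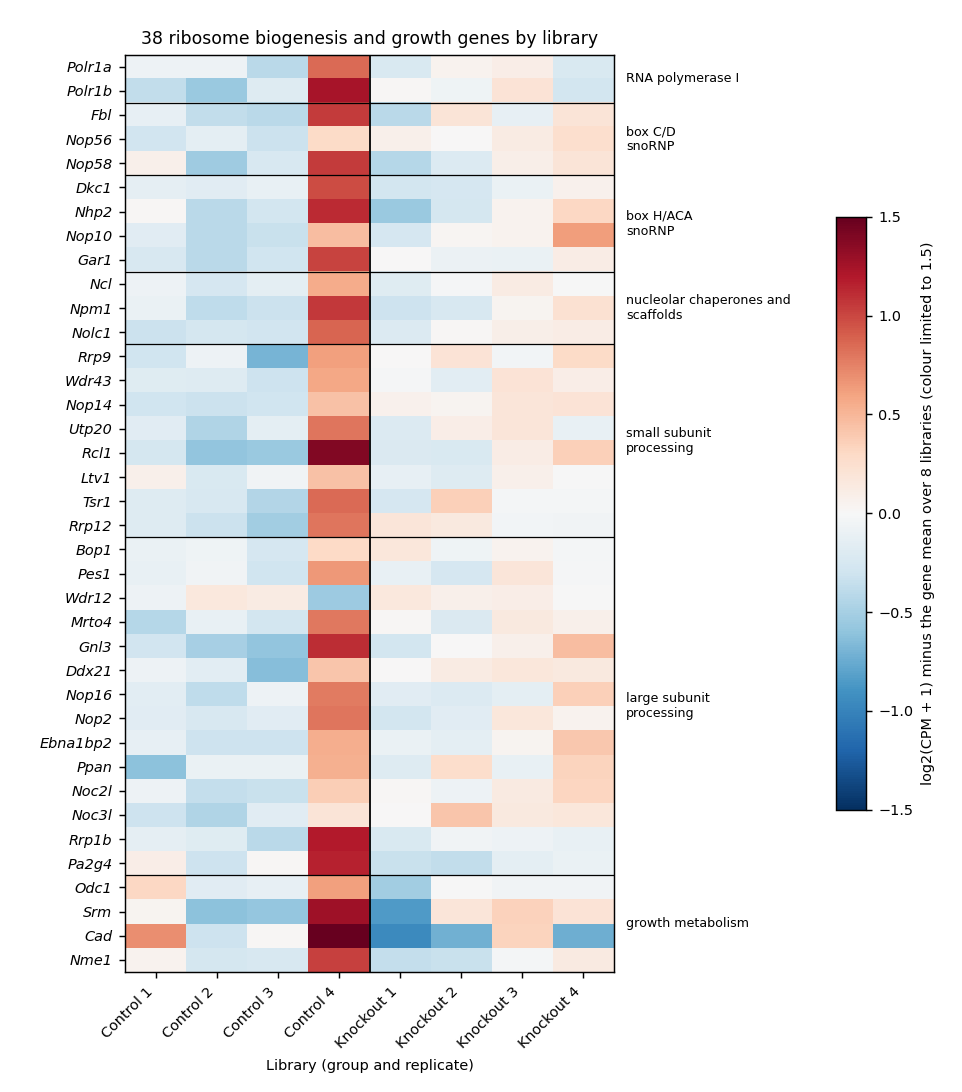
Level of each of the 38 genes (rows, ordered by role) in each of the 8 libraries (columns) as log2(CPM + 1) minus the mean of that gene over the 8 libraries, with colour limited to 1.5 either way. The column of control replicate 4 is red in every row but Wdr12, and the knockout-labelled columns depart most from the row mean for Cad.

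Across the list, no group difference passed the test, and the differences lay on both sides of 0. Differences were tested with limma on log2(CPM + 1), as knockout-labelled minus control, over the 13840 genes that reached 1 CPM in 4 or more of the 8 libraries. All 38 genes passed this filter, and the lowest value, of Srm in knockout-labelled replicate 1, was 1.67 CPM, or about 27 reads at the estimated depth. The median log2 change of the 38 genes was -0.03, as was the median over all tested genes on the same scale (a fold change on this scale is understated for genes with low values). Of the 38, 18 changes lay above 0 (45.2% of all tested genes did) and 20 below, from -1.03 for Cad to 0.37 for Noc3l. At an unadjusted p below 0.05, 1 of the 38 (Cad) was lower and 0 higher, against 11.7% and 7.62% of all tested genes (19.3% in either direction). The lowest limma adjusted p of the list was 0.189, again for Cad. The groups overlapped in all 38 genes, whereas they did not overlap in 13.2% of all tested genes. Of the 38 intervals (95%), 36 lay within a log2 change of 1 either way, and the bounds over all 38 ran from -1.91 to 0.86. None of the 38 was in the authors' deposited table of 218 changed genes.

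The RNA polymerase I subunits had their highest levels in control replicate 4. Polr1a, the gene of the largest catalytic subunit (chromosome 6 from 71909053 to 71984935, mm10), was at 22.4, 22.5, 17.6 and 43.3 CPM in control replicates 1 to 4 and at 20.1, 24.6, 25.4 and 20.1 CPM in knockout-labelled replicates 1 to 4. Apart from control replicate 4, the libraries of both groups overlapped. Its log2 change was -0.15 ± 0.24 (limma standard error, SE; adjusted p = 0.785) with all libraries and 0.11 ± 0.16 (adjusted p = 0.721) without control replicate 4. Polr1b, the gene of the second subunit, was at 50.5 CPM in control replicate 4 and at 13.8 to 24.1 CPM in the other 7 libraries, which is 3.18 times the mean of control replicates 1 to 3.

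Of the box C/D snoRNP genes, whose products guide ribose methylation of ribosomal RNA, Nop56 had the most even values. Nop56, a core scaffold protein of the particle (chromosome 2 from 130274430 to 130279313), was at 318, 349, 311 and 474 CPM in the controls and at 409.9, 389.5, 422 and 461 CPM in the knockout-labelled libraries. All 4 knockout-labelled libraries lay above control replicates 1 to 3 and below control replicate 4. The log2 change was 0.23 ± 0.14 (limma adjusted p = 0.411) with all libraries and 0.37 ± 0.10 (adjusted p = 0.0550) without control replicate 4, the lowest adjusted p of the 38 genes in that fit. Its exons overlap those of Idh3b on the opposite strand and it hosts 5 small nucleolar RNA genes. The strand setting of the counting is not known, so its value may include Idh3b reads. Fbl, the methyltransferase of the particle, and Nop58, the partner of Nop56, had log2 changes of -0.07 ± 0.30 and -0.18 ± 0.29, which were 0.27 ± 0.19 and 0.14 ± 0.18 without control replicate 4. Control replicate 4 held 2.66 times the mean of the other controls for Fbl and 2.41 times for Nop58.

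The box H/ACA snoRNP, which turns uridine into pseudouridine in ribosomal RNA, was represented by all of its core protein genes. Nop10, a small core protein (chromosome 2 from 112261926 to 112263269), was at 110.4, 93.4, 98.1 and 171 CPM in the controls and at 104, 126, 129 and 192 CPM in the knockout-labelled libraries. Replicate 4 was the highest library of each group, and it was higher in the knockout-labelled group than in the control. Its log2 change stood at 0.23 ± 0.22 (limma adjusted p = 0.614), and was 0.42 without control replicate 4 but 0.06 when knockout-labelled replicate 4 was left out. Dkc1, the pseudouridine synthase (X chromosome from 75095854 to 75109777), was at 72.3, 70.7, 73.5 and 158 CPM in the controls and at 65.3, 66.3, 74.3 and 83.3 CPM in the knockout-labelled libraries. Control replicates 1 to 3 lay within 3 CPM of each other, so the control SD of 42.8 CPM (n = 4) dropped to 1.40 CPM (n = 3) without control replicate 4. The log2 change of Dkc1 went from -0.28 ± 0.23 (limma adjusted p = 0.544) to -0.0041 ± 0.11 (adjusted p = 0.988). Nhp2 and Gar1, the remaining core proteins, were 2.55 and 2.73 times as high in control replicate 4 as in the mean of the other controls.

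The genes of the nucleolar chaperones and scaffolds also had their highest level in control replicate 4. Ncl, which encodes nucleolin (chromosome 1 from 86344719 to 86359400), was at 488, 431, 466 and 759 CPM in the controls and at 453, 508, 558 and 511 CPM in the knockout-labelled libraries. Without control replicate 4 the groups would still overlap, through knockout-labelled replicate 1. The log2 change was -0.05 ± 0.17 (limma adjusted p = 0.916), and 0.13 ± 0.10 (adjusted p = 0.466) without control replicate 4. Npm1, which encodes nucleophosmin and was chosen after its values were seen, was at 348, 284, 298 and 778 CPM in the controls and at 300.1, 315, 383 and 437 CPM in the knockout-labelled libraries. Its control mean was 427 ± 236 CPM (SD, n = 4) with control replicate 4 and 310.0 ± 33.3 CPM (SD, n = 3) without it. Nolc1, a nucleolar phosphoprotein that holds snoRNPs, was at 138 CPM in control replicate 4 and between 59.6 and 62.5 CPM in the other 3 controls.

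**Figure D2:**
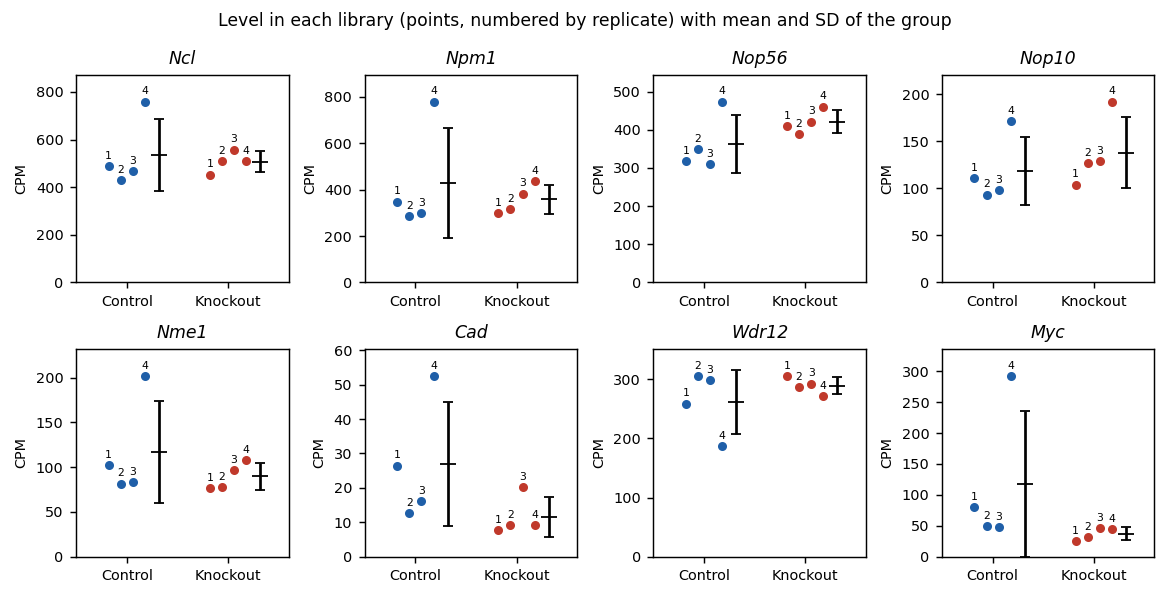
CPM of 7 of the 38 genes and of Myc in each library (points, numbered by replicate), with the group mean and SD (n = 4) beside them; the lower error bar of Myc in controls is drawn to 0. Control replicate 4 is the highest control in every panel but Wdr12, where it is the lowest library at 187 CPM.

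Of the 8 genes for small-subunit processing, 6 had changes above 0 with all libraries and 8 without control replicate 4. Wdr43, a subunit of the complex that binds the nascent precursor (chromosome 17 from 71615895 to 71659031), was at 87.7, 86.9, 80.3 and 149 CPM in the controls and at 98.3, 89.0, 115 and 107 CPM in the knockout-labelled libraries. All knockout-labelled values lay above control replicates 1 to 3, though knockout-labelled replicate 2 lay close to control replicate 1, and below control replicate 4. Its log2 change came to 0.06 ± 0.18 (limma adjusted p = 0.902), and ran from -0.04 without control replicate 3 to 0.26 without control replicate 4. Nop14, an early assembly factor (chromosome 5 from 34638536 to 34660148), was at 23.2, 22.7, 23.1 and 39.3 CPM in the controls and at 29.9, 29.4, 32.6 and 33.2 CPM in the knockout-labelled libraries. Its first 3 controls spread by an SD of 0.24 CPM, and the knockout-labelled libraries again lay between them and control replicate 4. The log2 change was 0.24 ± 0.18 (limma adjusted p = 0.510), and 0.43 ± 0.12 (adjusted p = 0.0717) without control replicate 4. Rcl1, a processing factor related to RNA cyclases and named after its values were seen, was at 9.86, 7.65, 7.90 and 33.1 CPM in the controls and at 10.1 to 15.8 CPM in the knockout-labelled libraries. Control replicate 4 was 3.91 times the mean of the other controls, the highest such ratio of the 38 genes. Rrp9, Utp20, Ltv1, Tsr1 and Rrp12 had log2 changes between -0.12 and 0.23 with all libraries.

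Among the 14 genes for large-subunit processing, 9 changes lay above 0 with all libraries and 13 without control replicate 4. Wdr12, which with Pes1 and Bop1 forms a complex that matures the large-subunit RNA (chromosome 1 from 60069785 to 60098645), was at 259, 305, 298 and 187 CPM in the controls and at 306, 286, 293 and 271 CPM in the knockout-labelled libraries. It was the exception of the list, with its lowest value of all 8 libraries in control replicate 4. This gave a log2 change of 0.16 ± 0.15 (limma adjusted p = 0.599), and 0.01 ± 0.10 (adjusted p = 0.963) without that library. Wdr12 overlaps exons of Carf on the opposite strand, so its values may hold reads of Carf. Its complex partners were at 131 CPM (Pes1) and 92.6 CPM (Bop1) in control replicate 4, against 67.0 to 80.1 CPM and 62.6 to 71.4 CPM in the other controls.

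Noc3l, which acts in export of the large subunit precursor (chromosome 19 from 38788128 to 38819237), had the highest log2 change of the list. It was at 8.38, 7.54, 9.37 and 12.4 CPM in the controls and at 10.7, 14.6, 11.9 and 12.1 CPM in the knockout-labelled libraries. Its partner gene Noc2l (chromosome 4 from 156236010 to 156247616) was at 31.3, 25.7, 26.2 and 43.3 CPM and at 33.5, 31.4, 36.6 and 41.5 CPM. For Noc3l control replicate 4 lay inside the range of the knockout-labelled libraries, and for Noc2l above it. The log2 changes were 0.37 ± 0.19 for Noc3l (limma adjusted p = 0.310) and 0.20 ± 0.18 for Noc2l (adjusted p = 0.588). With 1 library left out, that of Noc2l ran from 0.11 (without control replicate 2) to 0.35 (without control replicate 4). Ddx21, an RNA helicase of the nucleolus (chromosome 10 from 62580251 to 62602281), was at 83.3, 78.6, 56.1 and 117 CPM in the controls and at 88.2, 95.6, 98.4 and 96.9 CPM in the knockout-labelled libraries. Its controls were the more scattered, on the low side through replicate 3 and on the high side through replicate 4. The log2 change was 0.22 ± 0.19 (limma adjusted p = 0.551), and was 0.05 without control replicate 3 and 0.40 without control replicate 4.

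Pa2g4, a growth regulator that binds large-subunit particles (chromosome 10 from 128557766 to 128565987), had a log2 change below 0. It was at 179.9, 134, 169 and 374 CPM in the controls and at 133, 129, 151 and 156 CPM in the knockout-labelled libraries, with overlap among all libraries but control replicate 4. The group difference in log2 was -0.48 ± 0.25 (limma adjusted p = 0.328), and -0.17 ± 0.12 (adjusted p = 0.432) without control replicate 4. Gnl3, which encodes nucleostemin, was 3.02 times as high in control replicate 4 as in the mean of the other controls, and its knockout-labelled range of 29.0 to 49.1 CPM lay above those 3 controls at 23.2 to 28.9 CPM. The remaining genes of large-subunit processing (Mrto4, Nop16, Nop2, Ebna1bp2, Ppan and Rrp1b) had log2 changes from -0.23 to 0.15 and control replicate 4 as the highest library.

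The growth metabolism genes had log2 changes below 0 in 4 of 4 cases, none past the threshold. Cad, whose product carries out the first steps of pyrimidine synthesis (chromosome 5 from 31054780 to 31078479), was at 26.4, 12.7, 16.1 and 52.5 CPM in the controls and at 7.77, 9.27, 20.3 and 9.24 CPM in the knockout-labelled libraries. Knockout-labelled replicate 3 lay above control replicates 2 and 3, and the other 3 knockout-labelled libraries lay below every control. The control mean was 26.9 ± 18.0 CPM and the knockout-labelled mean 11.7 ± 5.83 CPM (SD, n = 4 each). The log2 change was -1.03 ± 0.40 (95% interval -1.91 to -0.15, limma adjusted p = 0.189), and -0.65 ± 0.32 (adjusted p = 0.250) without control replicate 4. Nme1, a nucleoside diphosphate kinase (chromosome 11 from 93956979 to 93968521), was at 102, 81.6, 83.1 and 202 CPM in the controls and at 76.7, 77.7, 96.6 and 108 CPM in the knockout-labelled libraries. Its log2 change went from -0.29 ± 0.26 (limma adjusted p = 0.576) to 0.0064 ± 0.14 (adjusted p = 0.985) without control replicate 4. An annotated gene, Gm20390, shares exons with Nme1 on the same strand, so reads may have been divided between them.

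The genes of the polyamine enzymes had the lowest read numbers of the list. Odc1, ornithine decarboxylase (chromosome 12 from 17544794 to 17551505), was at 9.92, 6.87, 7.08 and 12.5 CPM in the controls and at 5.17, 7.82, 7.51 and 7.50 CPM in the knockout-labelled libraries. Knockout-labelled replicate 1 was the lowest library and the other 3 lay within the control range. The fitted log2 change was -0.31 ± 0.22 (limma adjusted p = 0.483), and was -0.16 when control replicate 4 and -0.19 when knockout-labelled replicate 1 was left out. Srm, spermidine synthase, was at 3.94, 2.13, 2.20 and 10.6 CPM in the controls and at 1.67, 4.42, 5.10 and 4.51 CPM in the knockout-labelled libraries. Control replicate 4 was the highest and knockout-labelled replicate 1 the lowest of the 8, and the SE of its log2 change (0.41) was the largest of the list.

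**Figure D3:**
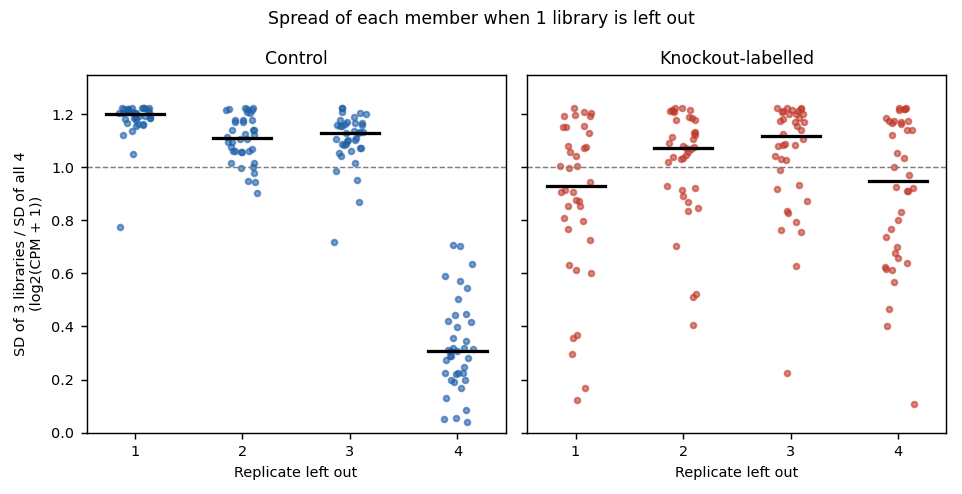
SD of each of the 38 genes over 3 libraries, divided by its SD over all 4 libraries of the group, on the log2(CPM + 1) scale, when the replicate on the x axis is left out (each point is a gene, the bar is the median, and the dashed line marks an unchanged SD). Leaving out control replicate 4 gave a median of 0.307, and every other library of either group gave a median of 0.930 or higher.

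How far single libraries set the spread was then measured for every gene and library. Leaving out control replicate 4 lowered the control SD more than leaving out any other control did in 38 of 38 genes, against 55.6% of all tested genes. The SD that was left was a median of 0.307 of the full SD for the 38 genes and 0.725 for all tested genes. It was below 0.5 of the full SD in 31 of the 38 genes and in 31.6% of all tested genes. The median SD of the 38 genes over control replicates 1 to 3 was 0.155 (log2), as was that of all tested genes, whereas over the 4 controls it was 0.55 against 0.25. In the knockout-labelled group the library with the most influence varied: replicate 4 in 16 genes (41.2% of all tested genes), replicate 1 in 13 (20.8%), replicate 3 in 5 (18.8%) and replicate 2 in 4 (19.2%). The median SD there was 0.18 for the 38 genes and 0.24 for all tested genes.

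Control replicate 4 was high for the list and not for genes in general. Its log2 level minus the mean of the other 3 controls had a median of 1.04 over the 38 genes, from -0.61 for Wdr12 to 1.86 for Rcl1. Over all tested genes the median of this difference was -0.04 and its 95th percentile 0.99, which 21 of the 38 genes exceeded. Control replicate 4 was the highest control for 37 of 38 genes against 34.9% of all tested genes, and the highest of all 8 libraries for 35 of 38 against 24.1%. It was the lowest control for 1 of 38 genes against 40.4% of all tested genes, so among all genes it often lay at either end. The summed CPM of the 38 genes was 2900, 2689, 2699 and 5024 in control replicates 1 to 4 and 2868, 2978, 3308 and 3459 in knockout-labelled replicates 1 to 4. The knockout-labelled sums thus lay between the first 3 controls and control replicate 4, with the exception of replicate 1, which was below control replicate 1. Among the knockout-labelled libraries, replicate 1 was the lowest for 20 of the 38 genes and replicate 4 the highest for 19.

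**Figure D4:**
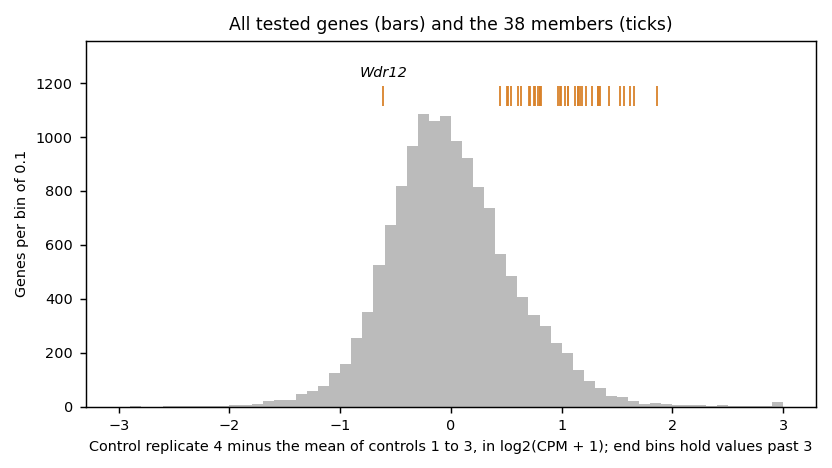
Histogram over the 13840 tested genes of the log2(CPM + 1) level in control replicate 4 minus the mean of control replicates 1 to 3 (bars, bins of 0.1, with values past 3 placed in the end bins), and the same difference for the 38 genes (orange ticks). The ticks lie to the right of the histogram's centre, around a median of 1.04, with Wdr12 alone to the left at -0.61.

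Without control replicate 4 most changes lay above 0, in 34 of 38 genes, against 43.5% of all tested genes, and their median was 0.26 against -0.05 over all. The 4 genes below 0 were Cad, Pa2g4, Odc1 and Dkc1. In this fit too 0 of 38 were called, against 4.84% of all tested genes (3.16% lower and 1.68% higher), and the lowest limma adjusted p was 0.0550. The unadjusted p was below 0.05 for 12 genes, all higher in the knockout-labelled libraries, against 8.79% of all tested genes in that direction and 22.3% in either. In 12 genes every knockout-labelled library lay above control replicates 1 to 3 (Nop56, Nolc1, Rrp9, Rrp12, Gnl3, Ddx21, Nop14, Wdr43, Gar1, Noc2l, Noc3l and Rcl1), against 8.39% of all tested genes, and in 0 genes below them, against 13.3%. The SE of the change was smaller in 38 of 38 genes, by a median factor of 0.64 and from 0.46 to 0.95, while over all tested genes it was smaller in 61.2% with a median factor of 0.967. This library was left out after its values had been seen in earlier work on these data, and nothing in the labels sets it apart.

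**Figure D5:**
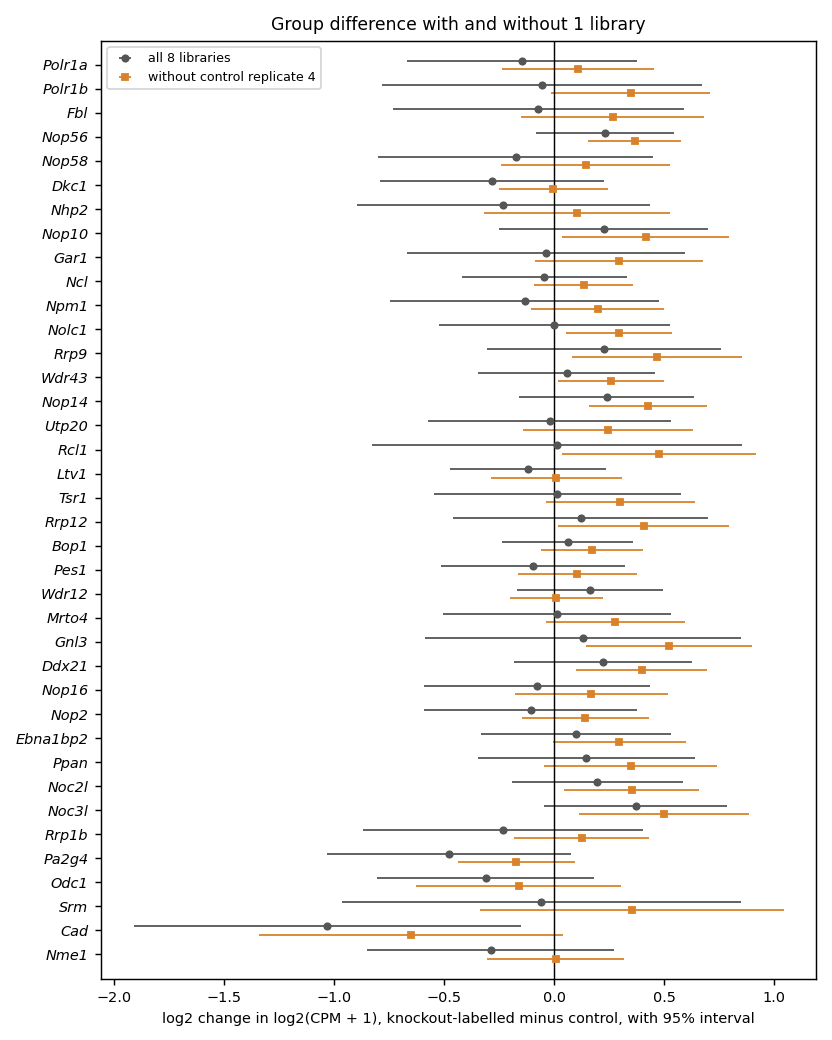
Log2 change (knockout-labelled minus control, on the log2(CPM + 1) scale) of each of the 38 genes with its 95% interval from limma, over all 8 libraries (grey circles) and without control replicate 4 (orange squares). The orange squares lie to the right of the grey circles for every gene but Wdr12, and their intervals are shorter.

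Other measurements moved with control replicate 4. Myc was at 79.7, 49.4, 47.9 and 292 CPM in the controls and at 25.6, 31.2, 46.6 and 45.1 CPM in the knockout-labelled libraries. Every knockout-labelled library was thus below every control, and control replicate 4 was 4.95 times the mean of the other 3 controls. The log2 change of Myc was -1.24 ± 0.47 (limma adjusted p = 0.183), and -0.66 ± 0.23 (adjusted p = 0.120) without control replicate 4, so that Myc was below 0 in the fit in which 34 of the 38 genes were above it. The mean log2(CPM + 1) of 7 proliferation genes was 7.40, 6.69, 7.30 and 8.04 in the controls and 6.16, 6.14, 6.73 and 6.14 in the knockout-labelled libraries. Of the 7, 4 were called lower, against 2.32% of all tested genes. Mki67, a marker of dividing cells, was at 273, 129, 243 and 362 CPM in the controls and at 71.0, 66.9, 113 and 55.3 CPM in the knockout-labelled libraries (limma log2 change -1.66 ± 0.29, adjusted p = 0.0149; not called in 4 of the 8 fits with 1 library left out, adjusted p up to 0.0644). The summed T cell genes were at their lowest in control replicate 4 (15116 CPM against 18310 to 20264 CPM in the other controls), and so was the nuclear RNA Malat1 (4024 CPM against 5944 to 7361 CPM). The T cell genes differed among themselves. Cd4, Cd8a, Cd8b1, Cd247 and Trac were at 0.46 to 0.57 times the mean of the other controls there, and Cd3e, Lck and Thy1 at 0.79 to 0.90 times. Cd3d was instead at its highest control level (747 CPM against 686 to 731 CPM), and Cd3g and Trbc2 lay within the range of the other controls. The summed markers of natural killer cells were highest in control replicate 4 (352 CPM against 131 to 252 CPM in the other 7 libraries), mostly through Gzma. This granzyme gene, also expressed by cytotoxic T cells, was at 268 CPM there against 54.3 to 83.2 CPM in the other controls. The other markers did not follow: Prf1 was at 67.9 CPM against 69.6 to 88.7 CPM, and Klrb1c and Ncr1 lay within the range of the other controls. The part of these differences in the levels of the 38 genes was not tested.

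Other genes of the same pathways were read from wider lists. Of 92 other ribosome biogenesis genes, 1 was called lower and 0 higher, against 2.32% and 1.21% of all tested genes (3.53% in either direction). Control replicate 4 was the highest control in 78 of the 92, against 34.9% of all tested genes. The called gene was Nop53, a factor of large-subunit maturation, at 207, 202, 223 and 260.3 CPM in the controls and 158, 167, 165 and 143 CPM in the knockout-labelled libraries (log2 change -0.49 ± 0.12, limma adjusted p = 0.0441). This call was lost in 6 of the 8 fits with 1 library left out and in 5 of 10 other settings (adjusted p from 0.0139 to 0.115). Of 34 other growth and nucleotide synthesis genes 0 were called, and the lowest p belonged to Tfrc, the transferrin receptor (-0.55 ± 0.19, limma adjusted p = 0.149), and Amd1, an enzyme of polyamine synthesis (-0.42 ± 0.16, adjusted p = 0.176). In 31 of these 34, control replicate 4 was the highest control. Of 91 tested ribosomal protein genes 0 were called, with control replicate 4 as the highest control in 91 of 91. The lowest p among them belonged to Rpl10 (0.46 ± 0.14, limma adjusted p = 0.0994) and Rps27 (0.77 ± 0.25, adjusted p = 0.113). Without control replicate 4 these and Rpl13 and Rpl36 were called higher (limma adjusted p = 0.0292 to 0.0381), which is 4 of 91 against 1.68% of all tested genes. In that fit Ftsj3, of the other ribosome biogenesis genes (adjusted p = 0.0377), and Hspe1, of the other growth genes (adjusted p = 0.0252), were also called higher.

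The MYC network genes, partners and antagonists of MYC at the E-box, did not share the pattern as a list. Control replicate 4 was the highest control in 3 of the 10 tested, against 34.9% of all tested genes. Mxd3, an antagonist of MYC that is known to be expressed in dividing cells, was called lower, at 39.4, 18.5, 36.3 and 58.6 CPM in the controls and 12.3, 9.88, 15.6 and 10.1 CPM in the knockout-labelled libraries (log2 change -1.51 ± 0.29, limma adjusted p = 0.0207). This call was lost in 5 of the 8 fits with 1 library left out (adjusted p up to 0.0794). Mxd4, another antagonist, named after its values were seen, was at 639, 705, 704 and 351 CPM in the controls and at 592, 537, 518 and 443 CPM in the knockout-labelled libraries. Its lowest value of the 8 libraries was in control replicate 4, where Myc was highest.

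A feature of the 38 genes that expression did not use is the small nucleolar RNA genes that they carry. In the GENCODE vM21 annotation of mm10, 9 of the 38 (23.7%) had a small nucleolar RNA gene within them on the same strand, against 1.62% of the 13605 tested genes with coordinates. They were Nop56 with 5, Nop58 with 4, Ncl, Wdr43 and Gnl3 with 3 each, Tsr1 and Ppan with 2 each, and Dkc1 and Odc1 with 1 each. Exons of 14 of the 38 overlap an opposite-strand gene and those of 7 overlap another gene of the same strand, so that their values could hold reads of a neighbour. Of the genes given above in every library, the opposite-strand overlaps concern Polr1a, Nop56, Dkc1, Wdr43, Nop14, Wdr12 and Noc2l.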

How the data were processed

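RNA-seq was measured in 4 control and 4 Kdm6b knockout-labelled libraries. The labels' protocols name the NucleoSpin RNA XS kit for extraction and the SMARTer Ultra Low RNA kit for the libraries. STAR 2.7.3a, Partek 10.0.22.0524 and mm10 come from the submitters' processing notes. How reads were counted, with which strand setting and annotation, is not given in the sources used here. CPM values were deposited by the authors with 0.0001 added, which was subtracted here. The authors' deposited table of changed genes gives a signed fold of control over knockout, a score made by the authors, and was used only to look the 38 genes up. Low values were whole multiples of 1 read within 0.02 reads in 67.0% to 75.9% of cases, so reads were not recovered. Depths and read numbers given here are therefore estimates. A level of 3 reads is 0.136 to 0.214 CPM, which covers counting error alone.

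Genes that reached 1 CPM in 4 or more libraries were tested with limma 3.58.1 (R 4.3.3) on log2(CPM + 1), with a mean-variance trend, two-sided, with Benjamini-Hochberg adjustment over 13840 genes and calls at an adjusted p below 0.05. The test was checked on simulated data with every library drawn independently, so a shift of many genes in a single library was not covered. Errors are SD for levels and SE for log2 changes. Given in every library are, by rule, the gene with the highest mean of each role group, the 10 with the lowest p, and Myc, Kdm6b and Mki67; others are named after their values were seen. The 38 genes and the lists were chosen with earlier results of these data known. The alternatives tried were TMM scaling, quantile normalization, array weights, other pseudocounts and filters, no trend, a replicate block and leaving out libraries.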

Additional observations from a re-analysis of the deposited data

Results flagged for a closer look

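In each of 76 groups (38 genes in 2 groups of 4 libraries), the gap between an extreme library and its nearest neighbour was divided by the range of the group, and 11 groups passed Dixon's 95% critical value for 4 libraries. The nominal rate is about 1 in 20 for independent groups, but the genes were read in the same libraries. Control replicate 4 was the high library in 8 of the 11 groups. Its gap was 0.966 of the range for Nop14, 0.952 for Dkc1, 0.945 for Nolc1, 0.926 for Nop2, 0.879 for Gar1, 0.859 for Wdr43, 0.834 for Rcl1 and 0.832 for Rrp1b. Over all tested genes, control replicate 4 passed on the high side in 2.72% and on the low side in 3.45%. Through any control library, 8 of the 38 genes (21.1%) passed, against 7.93% of all tested genes.

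The other 3 lay in the knockout-labelled group, where 3 of 38 genes (7.89%) is near the 6.59% of all tested genes that passed in that group. Replicate 1 was the low library for both polyamine genes, with a gap of 0.898 of the range for Odc1 and 0.858 for Srm. Replicate 4 was the high library for Nop16, with a gap of 0.899.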

How the results depend on the processing

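Under every alternative tried 0 of the 38 genes were called lower, and 0 were called higher except with both replicates 4 left out, a setting chosen after seeing the data, which called 1 gene, Nop56 (log2 change 0.32, limma adjusted p = 0.0496). The number of all genes called was 488; it was 1313 with array weights, which gave control replicate 4 the lowest weight, and ranged from 81 to 670 with 1 library left out (96 and 178 when control replicate 1 or 3 was dropped, and 150, 81 and 170 when knockout-labelled replicate 1, 2 or 4 was). The single call among other ribosome biogenesis genes became 0 under TMM scaling, no filter, no mean-variance trend, quantile normalization and the replicate block, and was 0 to 1 with 1 library left out (0 in 6 of 8 such fits). The median change of the 38 genes was between -0.15 and 0.26 with 1 library left out. Without control replicate 4, 16 of the 38 log2 changes turned from below to above 0. Among the 15 genes followed under every alternative, changes reversed for Polr1a (0.11 with array weights, 0.16 without both replicates 4, -0.31 to 0.11 with 1 library left out), Ncl (0.094, 0.13, and -0.14 to 0.13), Wdr43 (-0.0365 to 0.26 with 1 library left out) and Nme1 (-0.43 to 0.0064). The cause was not tested.

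Whether replicate numbers pair the libraries was not settled: same-numbered deviations correlated only weakly, at 0.149, 0.0652, -0.102 and 0.176, yet 3 of 4 matched their own number best. With the replicate block, 509 genes were called in all and 0 of the 38, and the median SE of the 38 changes was 0.18 against 0.24 without the block. With 4 libraries a group, small changes may have been missed, and the intervals given are not detection limits.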
